A study of Homo sapiens with 8 samples.

Results

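The histone genes of the array were examined for their signal in total RNA (T) and their IP/T ratio in an Argonaute 2 immunoprecipitate (Ago2-IP). The change of both in cells carrying a sponge for miR-155 was examined too. Members were all probes named for a clustered histone gene (formerly HIST1H, HIST2H, HIST3H or HIST4H) or a histone variant gene (formerly H1F, H2AF, H2BF or H3F) whose spots stood well above background in 4 or more of 8 channels. Of 99 histone probes for 78 genes on the array, 93 probes for 73 genes met this rule, out of 22538 probes that passed the same filter in all. The members comprised 73 probes for 62 replication-dependent histone genes and 20 probes for 11 variant genes. Of the 93, 88 were well above background in all 8 channels and 5 in 4 or 5 channels.

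The RNA came from KM-H2, an established line from Hodgkin lymphoma, a lymphoma of B-cell origin. Cells had been transduced with the empty retroviral vector pMSCV-PIG (EV) or with the same vector carrying a sponge (miR-155-sp, also called sponge cells here). A sponge is a transcript whose binding sites are meant to capture a miRNA, here miR-155. GFP+ cells were sorted from both populations. The authors propose that the sponge did not take up all miR-155 in this line, and its effect on miR-155 was not tested here. Total RNA and RNA precipitated with an antibody against Ago2 were taken from each population, so there were 4 groups (EV total and EV IP, then miR-155-sp total with its IP) of 1 RNA sample each. Every RNA was labelled in Cy3 and in Cy5, both labellings are technical, and no difference below has a replicate check. Both dye orientations, the one with the IP in Cy5 beside T in Cy3 and the reverse one, are therefore given as the measure of error, and no p-value was computed. The share of probes well above background was between 57.9% and 61.1% in the Cy3 channels and between 37.6% and 42.2% in the Cy5 channels. Of markers of Hodgkin lines 10 of 11 were detected in total RNA (CCL22 was not), while of genes of the B lineage CD79A and POU2AF1 were detected and MS4A1, PAX5, CD22 and CD79B were not. Markers of other cells were detected for 3 of 5 T cell, 2 of 4 myeloid, 0 of 2 erythroid and 1 of 3 epithelial genes.

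Replication-dependent histones are made in S phase to package newly copied DNA. Their genes are short, lack introns and lie in clusters, and their mRNAs end in a conserved stem-loop bound by SLBP in place of a poly(A) tail. Variant histones such as H3.3 and H2A.Z are made throughout the cell cycle, mostly from genes with introns, and their mRNAs are polyadenylated. Ago2 with a miRNA binds mRNAs mostly through sites in the 3' untranslated region, which is very short in replication-dependent histone mRNAs. The labelling kit named in the labels copies RNA from an oligo(dT) primer, so a signal of a replication-dependent probe depends on how that primer starts on an mRNA with no tail. The part of the labelling chemistry in the values below was not tested.

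The miRNA that the sponge is meant to capture is given first, with its seed (bases 2 to 8, which pair with target sites) in capitals. The sequence and its position (chr21:25573983-25574006, plus strand, within the gene MIR155HG) are from RefSeq, assembly GRCh38.p14.
hsa-miR-155-5p: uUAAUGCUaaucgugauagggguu

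The replication-dependent genes share features that the choice of members did not use, as the 250 bases before their start show. Promoter sequence was listed by RefSeq (GRCh38.p14) for 57 of the 62 replication-dependent genes (61 start sites) and for 10 of the 11 variant genes (14 start sites). Each line but the last is from the gene with the brightest total RNA probe of its histone type, among genes with a listed promoter. The last line is the promoter of H3-3B, the variant gene with the highest IP/T in EV cells after H3-5. Capitals mark matches on either strand to the octamer ATTTGCAT, the TATA box TATAAA, the CCAAT box CCAAT, the H1 box AAACACA and the H4 element GGTCC, where neighbouring matches may overlap.
H1-2 (chr6:26056471-26056720, minus strand): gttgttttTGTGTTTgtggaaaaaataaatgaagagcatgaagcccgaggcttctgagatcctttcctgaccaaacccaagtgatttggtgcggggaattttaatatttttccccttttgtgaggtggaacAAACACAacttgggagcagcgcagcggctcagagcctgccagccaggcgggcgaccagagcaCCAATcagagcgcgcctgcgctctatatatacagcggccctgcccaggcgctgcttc
H2AC20 (chr1:149886668-149886917, plus strand): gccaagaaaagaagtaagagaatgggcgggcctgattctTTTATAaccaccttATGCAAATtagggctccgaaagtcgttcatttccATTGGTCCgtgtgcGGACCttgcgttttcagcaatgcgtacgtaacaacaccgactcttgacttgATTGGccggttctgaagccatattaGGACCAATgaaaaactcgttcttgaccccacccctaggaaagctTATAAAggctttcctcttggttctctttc
H2BC13 (chr6:27807930-27808179, minus strand): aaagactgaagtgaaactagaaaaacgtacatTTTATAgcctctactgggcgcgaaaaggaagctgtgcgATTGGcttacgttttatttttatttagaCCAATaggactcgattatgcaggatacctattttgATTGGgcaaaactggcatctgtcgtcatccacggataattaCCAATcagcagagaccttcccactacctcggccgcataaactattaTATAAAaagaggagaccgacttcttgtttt
H3C15 (chr1:149852358-149852607, plus strand): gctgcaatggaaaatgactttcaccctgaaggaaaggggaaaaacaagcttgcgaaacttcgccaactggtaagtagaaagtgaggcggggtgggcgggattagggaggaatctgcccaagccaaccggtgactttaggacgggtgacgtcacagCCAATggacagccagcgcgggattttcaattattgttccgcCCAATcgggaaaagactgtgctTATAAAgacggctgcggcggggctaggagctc
H4C14 (chr1:149832407-149832656, plus strand): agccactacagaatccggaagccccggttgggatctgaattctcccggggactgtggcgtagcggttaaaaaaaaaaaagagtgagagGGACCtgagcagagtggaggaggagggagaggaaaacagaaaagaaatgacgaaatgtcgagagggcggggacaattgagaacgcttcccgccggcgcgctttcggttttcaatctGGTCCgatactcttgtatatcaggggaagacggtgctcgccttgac
H3-3B (chr17:75779780-75780029, minus strand): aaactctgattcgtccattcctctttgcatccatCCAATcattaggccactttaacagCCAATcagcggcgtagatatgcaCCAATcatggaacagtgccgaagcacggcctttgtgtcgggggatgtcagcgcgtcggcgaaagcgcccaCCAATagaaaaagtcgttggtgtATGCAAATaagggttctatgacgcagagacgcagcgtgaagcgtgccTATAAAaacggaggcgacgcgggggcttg

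The octamer, the known site of the POU factor OCT1 in H2B promoters, was matched in 25 of the 61 replication-dependent promoters (41.0%) against 1.63% of all 35116 listed promoters. It stood in 13 of 18 H2B promoters and in 11 of 14 H2A promoters, in 1 of 12 H3 promoters and in 0 of 12 H4 and 0 of 5 H1 promoters. Many H2A and H2B genes are divergent neighbours that share 1 upstream region, and the median position at which the match began was -49 relative to the start of H2B genes and -192 relative to that of H2A genes. The TATA box was matched in 41 of 61 replication-dependent promoters, with a median position of -31, against 11% of all promoters. A CCAAT box was matched in every H1, H2A, H2B and H3 promoter of this class and in 3 of 12 H4 promoters, against 32% of all. The H1 box was matched in 5 of 5 H1 promoters and in no other replication-dependent promoter, against 4.82% of all. GGTCC, part of the element by which H4 genes are recognised, was matched in 11 of 12 H4 promoters, with a median position of -46, and in 40.7% of all. Of the 14 variant promoters 1 held an octamer (that of H3-3B, printed above), 4 a TATA box and 11 a CCAAT box. A match is a description of these letters and not of binding.

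Histone signals were high in all 4 samples. The median log2 normalized signal of the 73 replication-dependent probes was 13.93 in EV total, 13.34 in EV IP, 14.01 in sponge total and 13.74 in sponge IP. For the 20 variant probes it was 14.47, 14.62, 14.33 and 14.70 in the same order. The replication-dependent median was lower in IP than in total RNA in both populations, and the variant median was not. These are medians of levels, and the IP/T taken within each probe, given below, had a median under 1 for both classes in both populations as the mean of the orientations. Over all 22538 probes the median log2 signal in total RNA was 8.63, but signals of different probes depend on probe sequence and are given as a description only.

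**Figure D1:**
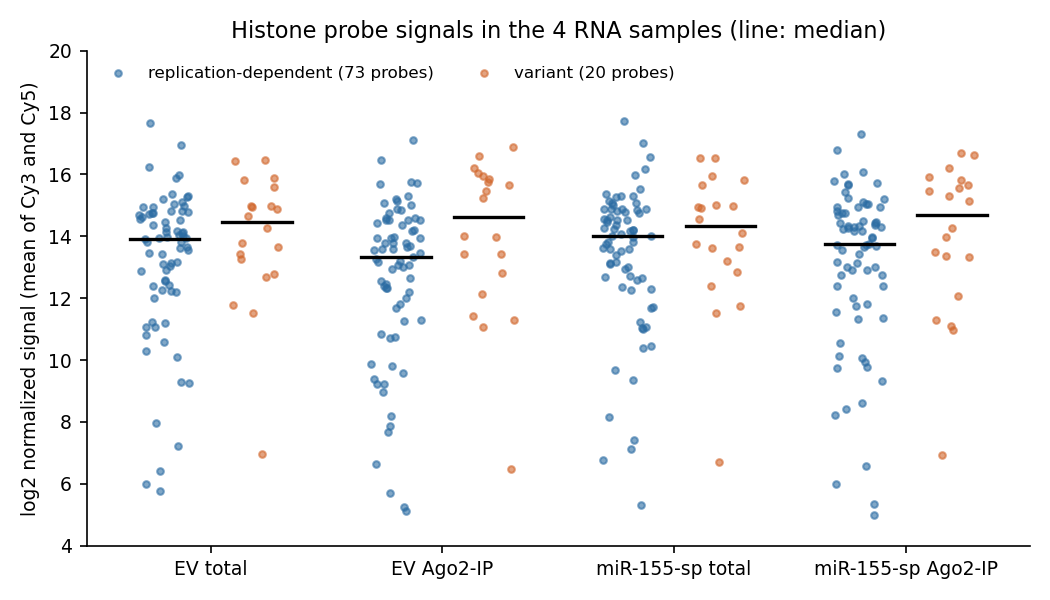
Log2 normalized signal (mean of the Cy3 and Cy5 labellings, vertical axis) of each histone probe in the 4 RNA samples, with replication-dependent probes in blue, variant probes in orange and the median as a black line. The replication-dependent median is lowest in EV IP at 13.34 and reaches 13.74 in sponge IP.

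The extremes of signal among replication-dependent probes were as follows. H4C3, a gene for the core histone H4, had the brightest probe, with log2 signals of 17.65 in EV total, 17.11 in EV IP, 17.73 in sponge total and 17.32 in sponge IP. It was followed by a probe of H3C15 (A_23_P115375) at 16.95, 16.46, 17.02 and 16.80 and a probe of H3C2 (A_24_P174924) at 16.26, 15.74, 16.57 and 16.07. All 3 of these H3 and H4 probes were lower in IP than in total RNA in both populations. The dimmest were a probe of H2AC11 (A_24_P414658) at 5.77, 5.25, 5.33 and 5.0, that of H4C7 at 6.01, 5.13, 6.77 and 5.34 and that of H2AC1, an H2A gene known from testis, at 6.42, 5.69, 7.40 and 6.0. These 3 lie at the limit of the detection rule, with 4, 4 and 5 channels well above background, as does H1-7, a testis-specific linker histone, with 4. Among the probes that failed the rule, those of H1-6, H1-8, H2BC1 and MACROH2A2 and a probe of H2BC21 were well above background in 0 channels.

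The first comparison concerns which histone transcripts were enriched in the Ago2-IP, for which the IP/T had to reach 2. In EV cells 3 of 93 histone probes were enriched, against 14.9% of all probes tested, and in sponge cells again 3, against 15.8%. Most histone probes are bright, and enrichment was rarer among bright probes. Of the 3190 with a log2 total signal of 12 or more, 224 were enriched in EV cells and 212 in sponge cells. All 3 were of the H3.3 type, namely 2 of 3 probes of H3-3B and the probe of H3-5, and no replication-dependent probe reached 2 in either population. An IP/T of 0.5 or less was measured for 14 histone probes in EV cells, against 13.4% of all probes, and for 10 in sponge cells, against 15.1%. These shares are near the background. Of the 14, 13 were replication-dependent and the other was a probe of H2AJ. At 0.5 or less in both populations were 8 of the 93 probes, against 2011 of all 22538, a share that is also near the background. The counts of 14 and 10 were 6 in EV cells and 1 in sponge cells when normexp, loess and Aquantile took the place of quantile normalization.

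The class median of log2 IP/T in EV cells was -0.54 for replication-dependent probes (-0.53 in either orientation) and -0.17 for variant probes (-0.0085 and 0.058, and 0.02 after normexp, loess and Aquantile). The median over all probes tested was -0.22, and over the 3190 probes with a log2 total signal of 12 or more, the range of most histone probes, it was -0.33. In sponge cells the class medians were -0.32 and -0.16, with -0.24 over all probes. There the medians lay at -0.29 and -0.30 with 1 mean per gene, at -0.33 and -0.32 without the Cy5 labellings and at -0.18 and -0.13 after normexp, loess and Aquantile, so that a lower replication-dependent class was not stable in sponge cells. In EV cells too the difference between the 2 class medians depended on how probes were counted, since H3-3A alone has 5 of the 20 variant probes. With 1 mean per gene it was -0.18 in place of -0.38.

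**Figure D2:**
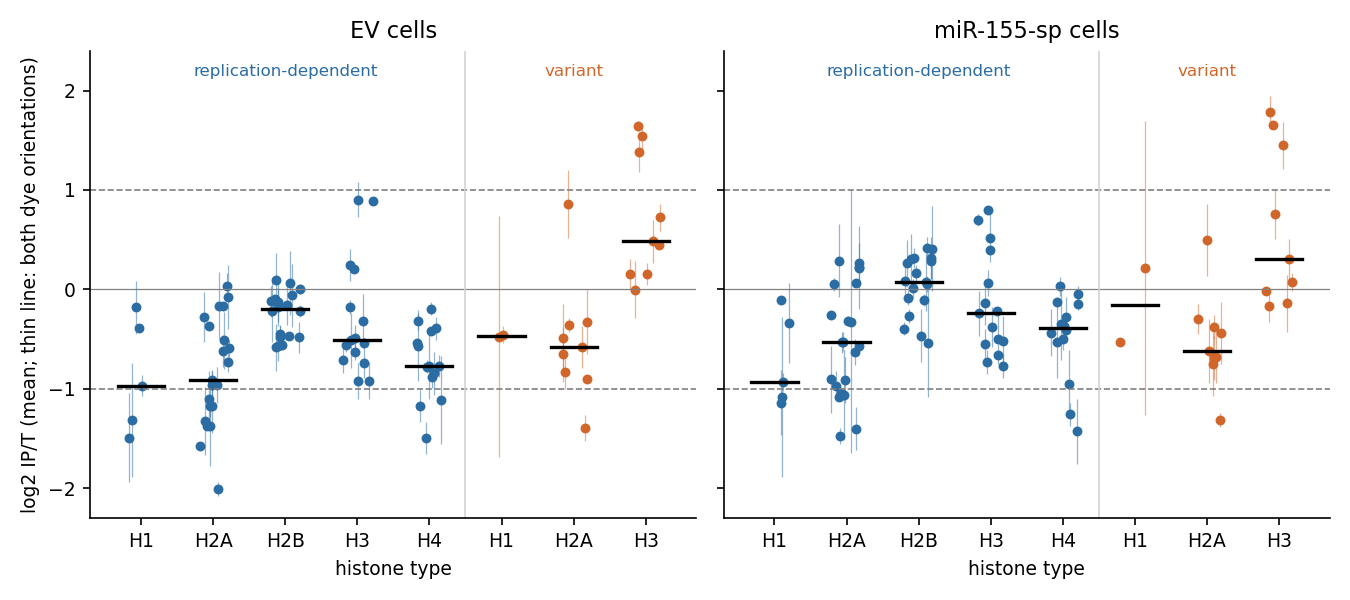
Log2 IP/T of each histone probe in EV cells (left) and sponge cells (right) by histone type, with thin lines spanning the 2 dye orientations, black lines at the medians and dashed lines at a ratio of 2 and of 0.5. In EV cells the replication-dependent medians run from -0.97 for H1 to -0.20 for H2B, and the H3 variants hold the 3 probes above the upper dashed line.

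Among replication-dependent types the order of median log2 IP/T in EV cells was H1 at -0.97 (5 probes), H2A at -0.92 (21), H4 at -0.77 (14), H3 at -0.52 (15) and H2B at -0.20 (18). The probes at 0.5 or less were 8 of H2A, 3 of H4 and 2 of H1, and no H2B or H3 probe was among them. The 18 H2B probes spanned -0.59 to 0.09 and the 21 H2A probes -2.01 to 0.03. By cluster, the median was -0.50 over 58 probes of the large HIST1 cluster on chromosome 6 and -0.96 over 11 probes of the HIST2 cluster on chromosome 1, of which 5 were at 0.5 or less. Those 5 were all H2A probes. The HIST2 probes of other types were at -0.59 and -0.48 (H2BC21), -0.49 and -0.63 (H3C15) and -0.19 (H4C14). The low HIST2 median thus came from its H2A probes. The 24 replication-dependent genes with an octamer had a median of -0.48 (32 probes) and the 33 without one -0.56 (36 probes). These groups also differ in histone type, since nearly all octamers stood in H2A and H2B promoters.

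The lowest IP/T of all members was that of H2AC21 (formerly HIST2H2AB), which encodes a core H2A. Its probe A_23_P343927 had log2 signals of 11.23 in EV total, 9.23 in EV IP, 11.23 in sponge total and 9.76 in sponge IP. Both IP values lay below both total values, the IP/T was 0.249 in EV cells (log2 -1.93 and -2.08 in the 2 orientations) and 0.360 in sponge cells (-1.55 and -1.39). A further probe of this gene, A_24_P68631, had a log2 IP/T of -1.10 in EV cells, so the size, but not the direction, differed between probes.

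H2AC20 (HIST2H2AC), another H2A gene of the HIST2 cluster, was second. Its probe A_23_P301247 measured 13.96 in EV total, 12.39 in EV IP, 13.99 in sponge total and 12.90 in sponge IP, with log2 IP/T of -1.54 and -1.61 in EV cells. H4C4 measured 12.22, 10.73, 12.58 and 11.32 in the same order, with log2 IP/T of -1.66 and -1.33. In all of these the IP was lower than the total in every labelling pair. The linker histone gene H1-5 measured 11.08, 9.59, 11.02 and 9.94, with -1.94 and -1.04, a spread between orientations wider than for the core histones named. H2AC6 measured 9.25, 7.88, 9.66 and 8.62, with -1.41 and -1.34. After normexp, loess and Aquantile its log2 IP/T was -0.53.

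At the other end, the 5 replication-dependent probes of highest IP/T in EV cells were 4 H3 probes and 1 H2B probe. H3C3 measured 13.63 in EV total, 14.54 in EV IP, 13.62 in sponge total and 14.42 in sponge IP, an IP/T of 1.87 in EV cells (log2 1.08 and 0.73). H3-4, known as the testis histone H3t, measured 14.83, 15.72, 15.09 and 15.78, an IP/T of 1.85 (log2 0.88 and 0.90). Both were higher in IP than in total RNA in every labelling pair of both populations. The probes of H3C4 had log2 IP/T of 0.24 (0.08 and 0.40) and 0.20 (0.19 and 0.21), and that of H2BC9 0.09 (0.36 and -0.18), whose orientations disagree in sign.

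**Figure D3:**
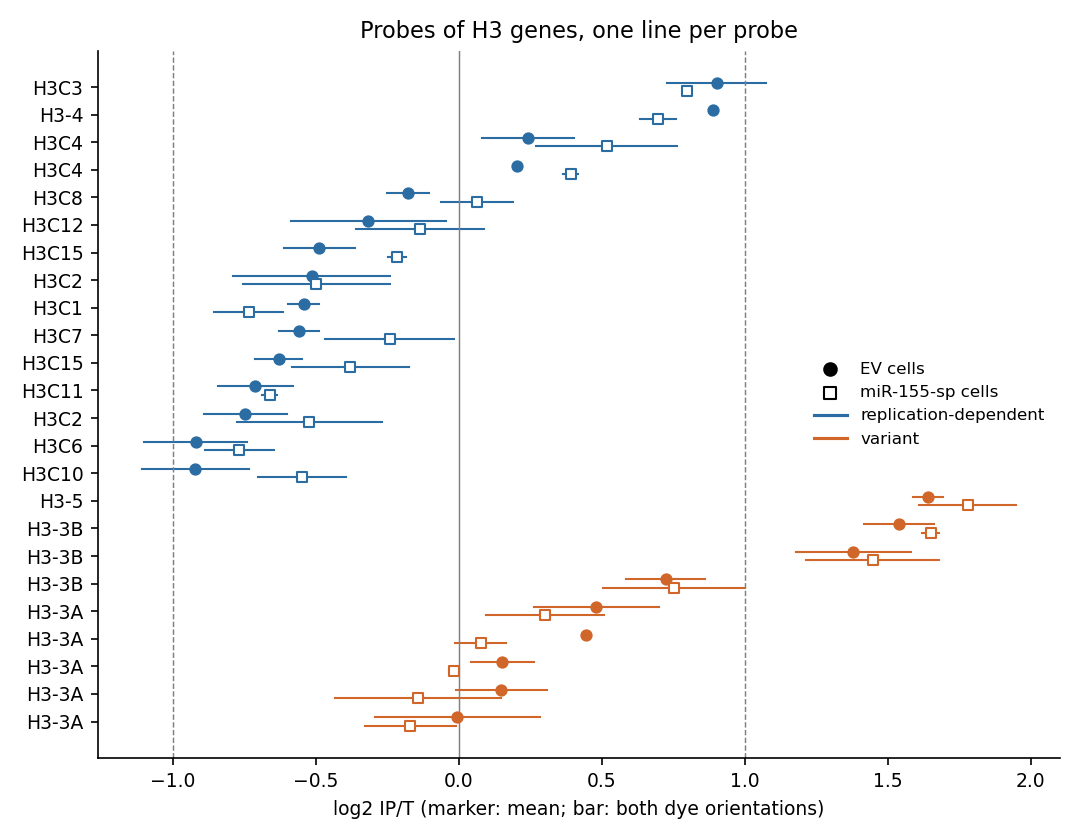
Log2 IP/T of every probe of an H3 gene, with filled circles for EV cells, open squares for sponge cells and bars spanning the 2 dye orientations; replication-dependent genes are blue and variant genes orange, and dashed lines mark a ratio of 2 and of 0.5. H3-5 and 2 probes of H3-3B lie beyond 2 in both populations, whereas the 5 probes of H3-3A lie between 0.889 and 1.40.

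The H3.3 protein, the H3 variant made throughout the cell cycle, is encoded by both H3-3A and H3-3B. Probes of H3-3B differed among themselves. A_23_P152516 measured 14.66 in EV total, 16.20 in EV IP, 14.55 in sponge total and 16.20 in sponge IP, an IP/T of 2.90 in EV cells (log2 1.42 and 1.66). A_24_P82419 measured 14.28, 15.66, 14.11 and 15.55, an IP/T of 2.60 (log2 1.18 and 1.58). The third, A_24_P91035, measured 13.28, 14, 13.22 and 13.97, an IP/T of 1.65 (log2 0.86 and 0.58). For all 3 the IP exceeded the total in every labelling pair. H3-5, an intronless copy of H3-3B, measured 14.96, 16.60, 14.90 and 16.68, an IP/T of 3.12 (log2 1.69 and 1.59), the highest of all members. As H3-5 and H3-3B are nearly identical, the probe of either may also bind the other's RNA.

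The 5 probes of H3-3A had log2 IP/T from -0.0047 to 0.48 in EV cells, below all probes of H3-3B. A_24_P105298 measured 16.45 in EV total, 16.89 in EV IP, 16.54 in sponge total and 16.62 in sponge IP, so that log2 IP/T in EV cells was 0.44 (0.46 and 0.43) and that in sponge cells 0.08 (0.17 and -0.01). The remaining 4 probes were at 0.48, 0.15, 0.15 and -0.0047 in EV cells and at 0.30, -0.02, -0.14 and -0.17 in sponge cells. All 5 were thus lower in sponge cells, by 0.17 to 0.37 on the log2 scale, and in both orientations.

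Variants of H2A were mostly below a ratio of 1. The exception was H2AZ2, 1 of the 2 genes for H2A.Z, a variant found at promoters, with 15 in EV total, 15.85 in EV IP, 14.98 in sponge total and 15.48 in sponge IP. In EV cells its log2 IP/T was 0.86 (1.20 and 0.51), against 0.50 in sponge cells (0.86 and 0.14). H2AZ1, which encodes the near-identical protein, lay on the other side of 1, with log2 IP/T of -0.49, -0.58 and -0.90 over its 3 probes in EV cells and of -0.62, -0.68 and -0.69 in sponge cells. In every labelling pair the H2AZ1 probes were lower in IP and the H2AZ2 probe was higher.

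H2AJ, an H2A variant expressed apart from replication, had the lowest IP/T among variants. Its probe A_23_P204277 measured 12.69 in EV total, 11.30 in EV IP, 12.40 in sponge total and 11.09 in sponge IP, with log2 IP/T of -1.26 and -1.52 in EV cells. Its other probe, A_24_P236003, was at -0.83 in EV cells and -0.38 in sponge cells. H2AX, the variant phosphorylated at DNA breaks, was at -0.66 and -0.75, MACROH2A1 at -0.36 and -0.30, H2AB2 at -0.33 and -0.44 and the linker variant H1-10 at -0.46 and -0.53 in EV and sponge cells, respectively. Each of these 4 was below a ratio of 1 in every orientation. For H1-7 the orientations in EV cells gave 0.74 and -1.69, and no direction can be read.

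The second comparison concerns the sponge, as log2 IP/T in sponge cells minus that in EV cells. Of the 73 replication-dependent probes, 61 had a higher IP/T with the sponge in both dye orientations, against 29.1% of all probes tested, and 5 had a lower one in both, against 29.3%. Of the 20 variant probes, 4 were higher and 10 lower in both orientations, and the 5 probes of H3-3A were among the 10. The median change was 0.29 on the log2 scale for replication-dependent probes (0.21 where the IP was in Cy5, 0.36 in the reverse orientation), -0.09 for variants (-0.04 and -0.09) and -0.0037 over all probes. With 1 mean per gene the variant median change was -0.0084, with 6 of 11 genes below 0, so a fall of the variant class was not stable. The replication-dependent median change was then 0.30, with 56 of 62 genes above 0. As a ratio, the median change of the replication-dependent probes was 1.23, small in size and shared by many probes. Near-identical genes give probes that may bind each other's RNA, so the 73 probes are not 73 separate observations.

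As histone probes are bright, the comparison was repeated among the probes with a log2 total signal of 12 or more, a limit chosen after the data were seen. There 52 of 58 replication-dependent probes (89.7%) and 3 of 17 variant probes (17.6%) were higher in both orientations, against 1061 of 3115 other probes (34.1%). Of those other probes 8.25% had a change at or above the replication-dependent median.

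**Figure D4:**
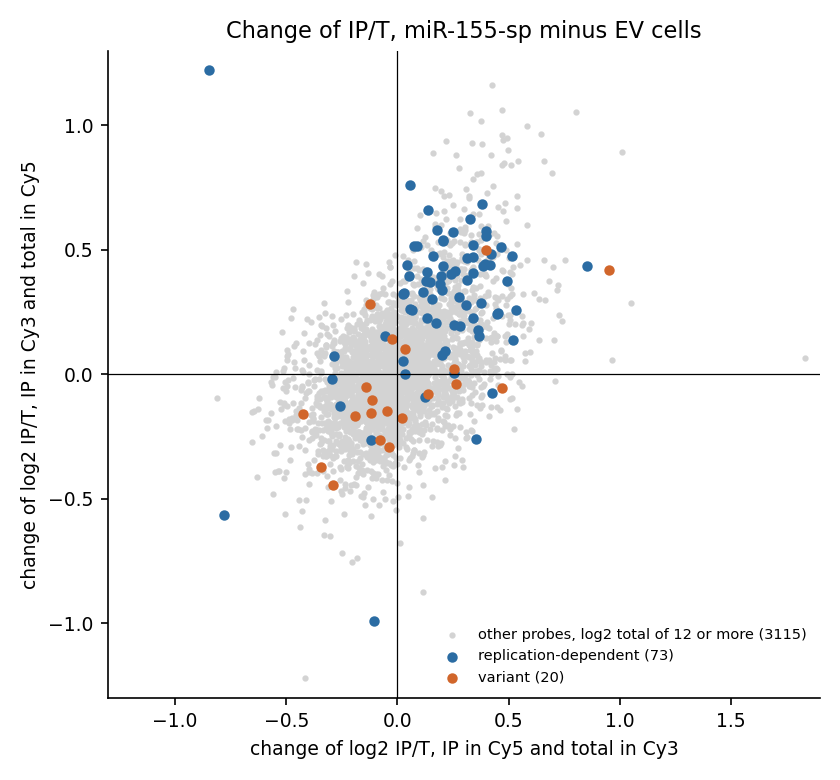
Change of log2 IP/T (miR-155-sp minus EV cells) with IP in Cy5 (horizontal axis) against that with IP in Cy3 (vertical axis) for replication-dependent probes (blue), variant probes (orange) and the 3115 other probes with a log2 total signal of 12 or more (grey). Of the 73 blue points 61 lie in the upper right part, above 0 on both axes, and 10 of the 20 orange points lie in the lower left part.

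The higher IP/T was found in all 5 replication-dependent types, with median changes of 0.18 for H1, 0.34 for H2A, 0.32 for H2B, 0.19 for H3 and 0.27 for H4. Higher IP/T in both orientations was found for 3 of 5 H1, 19 of 21 H2A, 16 of 18 H2B, 10 of 15 H3 and 13 of 14 H4 probes. It was found for 48 of 58 probes of the HIST1 cluster and 10 of 11 of the HIST2 cluster. Over their probes, genes with an octamer had a median change of 0.33 and those without one 0.27. As the octamer was matched almost only in H2A and H2B promoters, this split cannot be told apart from histone type.

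Few single histone probes reached a 1.5-fold change with both orientations agreeing. H4C2, an H4 gene, was the only replication-dependent probe 1.5-fold higher, and among variants H1-7 was 1.5-fold higher, against 6.34% of all probes. H2AC1 was 1.5-fold lower, against 6.57% of all probes, and no histone probe changed 2-fold. Such changes were rarer among bright probes. Of the 3190 with a log2 total signal of 12 or more, 31 were 1.5-fold higher and 1 was 1.5-fold lower. The probe of H4C2 measured 14.76 in EV total, 13.59 in EV IP, 14.88 in sponge total and 14.35 in sponge IP, a change of 0.64 on the log2 scale (0.85 and 0.44). H2AC1 and H1-7 are dim, with 5 and 4 channels well above background. Without the Cy5 labellings the change of H2AC1 was 0.17 in place of -0.67.

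After H4C2, the largest changes upward among replication-dependent probes detected in all 8 channels were those of H2AC21 and H2BC10. H2AC21 (A_23_P343927, values above) changed by 0.53 (0.38 and 0.69). H2BC10 measured 14.15 in EV total, 13.97 in EV IP, 14.19 in sponge total and 14.51 in sponge IP, a change of 0.50 (0.52 and 0.48) that took it from below to above a ratio of 1. The largest changes downward among these replication-dependent probes were smaller, and variant probes went further, with -0.37 for H3-3A (A_24_P105298) and -0.36 for H2AZ2. H3-4 changed by -0.19 (-0.12 and -0.26), H3C1 by -0.19 (-0.26 and -0.13) and the linker histone H1-2 by -0.16 (-0.29 and -0.02). H1-2 measured 15.26, 15.08, 15.28 and 14.95, the narrowest range among these 3.

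The change of IP/T can be read from the levels as well. The replication-dependent probes were higher in the IP of sponge cells than in that of EV cells by a median of 0.44 on the log2 scale, and higher in total RNA by a median of 0.14 (0.17 in Cy3, 0.16 in Cy5). For variants these medians were -0.09 and -0.0028, and over all probes -0.01 and -0.00011. In total RNA 50 of the 73 replication-dependent probes and 9 of the 20 variant probes were higher with the sponge in both labellings, against 31.3% of all probes. A 1.5-fold higher total was measured for 3 histone probes, against 2.76% of all, and a 1.5-fold lower total for 0, against 4.17%. Among the 3190 probes with a log2 total signal of 12 or more, 5 were higher and 10 lower by this rule. The 3 were H2AC1 and H4C7, both dim, and H3C12 (11.06 in EV total and 11.67 in sponge total), named here after its values were seen. In bulk RNA a larger share of cells in S phase and more histone RNA per cell cannot be told apart.

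A pair of measures that moved with this result are given beside it. Spike-in RNAs, control transcripts added for labelling, had a median log2 IP/T relative to the genes of 0.12 in EV cells and 1.54 in sponge cells over 10 spike-ins. The median of the differences taken within each spike-in was 1.57 (1.56 and 1.57 in the 2 orientations), and in total RNA it was 0.14. The gene signal of the 2 IP samples thus stood at different heights against the spike-ins, and its part in the histone change was not tested. Before quantile normalization the median change of the histone probes was 0.28, beside 0.25 after it, and that of all probes was 0.0016.

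Genes of the S phase programme were set beside the histones as a comparison. Over 38 probes of 28 such genes, among them the replication factors PCNA and MCM2 to MCM7, the median log2 IP/T in EV cells was 0.02. Its median change with the sponge was -0.00032, with 9 probes higher and 14 lower in both orientations, against 29.1% and 29.3% of all probes. In total RNA 23 of the 38 were higher with the sponge in both labellings, against 31.3% of all probes, with a median change of 0.12. The median shift of the S phase genes was thus 0.12 in total RNA and near 0 in IP/T, beside 0.14 and 0.29 for the replication-dependent histones. Probes of cytosolic ribosomal proteins, which are also bright (185 probes), had a median log2 IP/T of -0.39 in EV cells and a median change of -0.05. Of these, 46 were higher and 82 lower in both orientations, against 29.1% and 29.3% of all probes.

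The factors that process histone mRNAs or carry histones were covered by 46 probes for 36 of 39 listed genes. In EV cells 5 of these probes reached an IP/T of 2, against 14.9% of all probes, and 3 were at 0.5 or less, against 13.4%. In sponge cells 9 reached 2 and 6 were at 0.5 or less, against 15.8% and 15.1%. The median log2 IP/T in EV cells was -0.17, and its median change with the sponge was 0.14. With the sponge 19 probes were higher and 12 lower in both orientations, against 29.1% and 29.3% of all probes. SLBP, which binds the histone stem-loop, measured 12.28 in EV total, 12.01 in EV IP, 12.29 in sponge total and 11.85 in sponge IP, with log2 IP/T of -0.27 in EV and -0.44 in sponge cells. Its values lay close together and it was enriched in neither population.

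The listed genes whose mean IP/T reached 2 in both populations were NPAT, LSM11, TUT4, NAP1L1 and COIL. The count of probes past 2 in EV cells was 1 in place of 5 under either normexp setting. NPAT, the activator of histone gene transcription, was at 3.30 in EV cells (2.88 and 3.79 in the 2 orientations) and at 3.93 in sponge cells (3.65 and 4.24). The chaperone NAP1L1 was at 2.90 (2.76 and 3.04) and 4.01 (4.30 and 3.74). Both reached 2 in every orientation, as did the probe A_23_P368195 of LSM11, a part of the U7 particle that cuts histone mRNAs, with 4.27 (2.91 and 6.28) and 5.38 (4.90 and 5.91). That LSM11 probe was dim in total RNA (mean log2 signal 5.85). It was well above background in 6 channels, with only 1 total RNA channel in each population. The other LSM11 probe was at 1.75 (2.0 and 1.54) and 1.91 (1.6 and 2.27). TUT4, which adds uridines to histone mRNAs in decay, was at 2.93 (1.88 and 4.56) and 4.63 (3.56 and 6.02), below 2 in 1 orientation of EV cells. COIL, the coilin of Cajal bodies, was at 2.48 (1.34 and 4.58) and 3.75 (1.72 and 8.16), so it reached 2 in only 1 orientation of each population, and it was well above background in only 4 channels. SRCAP, which exchanges H2A.Z into nucleosomes, was the listed probe at 0.5 or less in both, with 0.405 (0.358 and 0.459) and 0.411 (0.289 and 0.585), and was also above background in 4 channels.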

How the data were processed

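RNA of KM-H2 cells, total or from the Ago2-IP, had been labelled in 2 dyes and hybridised to 4 two-color Agilent 44k arrays with swapped dyes. The deposited intensity of each spot came from Agilent Feature Extraction, run by the authors (version 10.7.3.1 per the file headers and 10.5.1.1 per the labels), which subtracted background and normalized the dyes within an array. The authors also deposited log2 values, quantile-normalized and filtered on detection and on agreement of the labellings. They hold 88 of the 93 histone probes and were used as an alternative.

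Control and outlier spots were left out, spots of the same probe were averaged as log2 values and the 8 channels were quantile-normalized. Probes well above background in at least 4 channels were kept (22538 of 41000). Log2 IP/T, the difference of the IP and the total value, was averaged over both dye orientations and is relative to all probes, so it gives no amount of bound RNA. Enrichment was an IP/T of at least 2, depletion one of 0.5 or less. As each group is 1 RNA, no test was run, the number of arrays limits the precision, and both orientations stand beside the main values. No member spot was saturated.

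The scanner files used here carry an accession per probe and no gene name. Names came from a RefSeq table (GRCh38.p14), which named 23958 of the 41000 probes, and an older histone symbol or its current form decided membership. An unnamed probe cannot be a member here. A few genes are not reported here. The arrays were designed on hg18, and no probe coordinates are given. Probe sequences were not used here, so cross-hybridisation between near-identical histone genes was not assessed.

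Named were all variant probes, among replication-dependent probes the 5 highest and 5 lowest in IP/T in EV cells, the 3 highest and 3 lowest in total signal and the 3 largest changes each way with the sponge, SLBP, and the processing genes past the limits in both populations. The members and gene lists were chosen with earlier results of these data known. Alternatives were the common median or the 75th percentile of a channel, normexp (offset 50) before either loess with Aquantile or quantile normalization (limma 3.58.1, R 4.3.3), the deposited values, other detection filters, the 2-fold filter on labellings, single labellings, single orientations and gene means. Added after the data were seen were the signals before quantile normalization and the limit of log2 12 for bright probes. The remaining steps used numpy 2.4.6 and pandas 2.3.3 under Python 3.11.15, and the code was tested on simulated data.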

Additional observations from a re-analysis of the deposited data

Results flagged for a closer look

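In all, 3 histone probes lay on opposite sides of a ratio of 1 in the EV and miR-155-sp (sponge) cells in both dye orientations. With 1 RNA sample in each group, no test of the difference was made. The share of all probes that met this rule was not counted, so it is not known whether 3 is many. The probe of H2AC12, an H2A gene, had log2 IP/T of -0.38 and -0.36 in EV cells and of 0.04 and 0.08 in sponge cells, a change of 0.427. For H2AC14 the probe A_24_P394510 had -0.13 and -0.21 in EV cells and 0.19 and 0.26 in sponge cells, a change of 0.391. For H3-3A the probe A_23_P23141 had 0.04 and 0.26 in EV cells and -0.04 and -0.0018 in sponge cells, a change of -0.171. H2AC12 and H2AC14 were named after their values were seen.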

How the results depend on the processing

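Each group is 1 RNA, and both labellings are technical, so neither the spread between cultures nor that between immunoprecipitations is known. The Cy3 and Cy5 labellings of a group were on different arrays. No array held both EV and sponge RNA, so each change with the sponge is a difference between arrays. Probe signals are limited by background for 5 dim members.

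In every setting tried but the one before quantile normalization, for which the classes were not computed, the replication-dependent median change of IP/T was above 0, with 58 to 68 of its probes above 0 (67 as reported) where probes, not gene means, were counted, and the variant median was below 0 (-0.13 to -0.0020). Median log2 IP/T of all histone probes (-0.48 in EV cells, -0.28 in sponge cells) and its change (0.25) moved as follows, and the cause was not tested. The common median gave -0.20 in sponge cells, a change of 0.33 and a change in total RNA of 0.17 in place of 0.11. The 75th percentile gave -0.38, -0.16 and a change in total RNA of 0.23. Normexp with loess and Aquantile gave -0.29, -0.15 and 0.18, with 6 and 1 probes at 0.5 or less and 1 processing gene probe in place of 5 at 2 or more. That setting also moved the median of all probes in EV cells from -0.22 to -0.01, normexp with quantile normalization moved it to -0.09 and no detection filter to -0.04. Normexp with quantile normalization gave -0.45, a change of 0.18, 6 probes at 0.5 or less in sponge cells and 1 processing gene probe. Before quantile normalization, which was added after the data were seen, the medians were -0.36 and -0.14. IP in Cy5 alone gave -0.46 in EV cells and 5 probes at 2 or more in each population, and IP in Cy3 alone gave -0.18 in sponge cells. Among probes detected in all 8 channels there were 2 such processing gene probes.

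The difference between the class medians (replication-dependent minus variant) in EV cells (-0.38) was -0.43 with normexp and quantile normalization, -0.52 in the deposited values, -0.51 in at least 6 and in all 8 channels, -0.54 with no detection filter, -0.54 with labellings within 2-fold, -0.52 and -0.59 in the single orientations and -0.18 over gene means. Leaving out the labelling of 1 dye gave -0.39 to -0.26 for this difference, -0.52 to -0.40 and -0.33 to -0.15 for the medians and 0.11 to 0.13 for the change in total RNA. Without the Cy5 labellings the change of H2AC1 (-0.67) turned to 0.17, and without the Cy3 labellings it was -1.51.

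IP and total RNA of a population were hybridised together on the same array, so each IP/T is a difference within an array. No test was run, paired or not, and the replicate numbers name only the Cy3 and Cy5 labellings.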
